A study of Rattus norvegicus with 48 samples.

Results

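Progression of steatohepatitis within the diseased rat liver was described from 16 of the 48 liver RNA samples of the series, 8 animals after 12 weeks and 8 after 4 weeks on the same diet. The members were chosen by label alone: all animals whose label named the diet "CDDA Cholesterol 1pc" and week 12 or week 4, 16 in all, each library from 1 male Wistar rat that was bought at 6 weeks of age. This diet, called CDAA in the following, supplies amino acids in place of protein, lacks choline and contains 1% cholesterol. CSAA animals were of the same sex, strain and supplier and received a choline-supplemented amino acid-defined control diet. They numbered 8 each at weeks 4, 8 and 12, and 8 further CDAA animals were sampled at week 8. By the authors' description the CDAA diet also had more of its energy as fat and less as carbohydrate than the control diet. Added cholesterol is named for CDAA alone. The effects of these differences in diet cannot be told apart. No animal was sampled more than once, so week 12 and week 4 are different rats, and the rats of week 12 were also older. Time on the diet and age cannot be told apart within CDAA, and the change between the same weeks on CSAA is therefore given beside the results. Rats were housed in pairs and the labels do not name the cages, so that animals of a group may not be fully independent.

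Choline is required for the synthesis of phosphatidylcholine, which the hepatocyte needs to export triglycerides in very low density lipoproteins. Without it fat is retained in the liver, and inflammation, hepatocyte injury and the deposition of collagen by activated stellate cells follow, a sequence known as steatohepatitis with fibrosis. Cholesterol in the diet is known to aggravate this injury. Genes are listed in the count table by Ensembl identifiers without symbols, and the reference used here does not pair these identifiers with names. Known genes, pathways and cell type markers were therefore not looked up, and the labelled tissue was not checked against markers. The genes are described by groups that were defined in animals outside the comparison. In bulk liver, fewer cells of a type and less RNA per cell cannot be told apart.

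In the 16 livers the reads on genes ranged from 16205180 to 22284359 per animal. Depth did not differ detectably between the weeks (difference of means -477492 reads, two-sided exact permutation test over 12870 splits, p = 0.629, adjusted over the 4 library measures p = 0.629). At week 12 more genes had at least 1 read, with a lowest, median and highest of 16350, 16735 and 16947 against 15257, 15867 and 16148 at week 4 (adjusted p = 0.000311, exact permutation test). All animals of week 12 lay above all animals of week 4. The same gene had the most reads in all 16 livers, and its share was lower at week 12, with 6.60%, 7.25% and 7.76% against 7.43%, 9.03% and 12.4% (adjusted p = 0.00104, exact permutation test). Here the groups overlapped. The TMM factor, which scales a library for the share taken up by its most abundant genes, was higher at week 12, with 1.27, 1.36 and 1.43 against 0.827, 1.10 and 1.17 (adjusted p = 0.000311, exact permutation test). For the number of genes and the TMM factor the unadjusted p of 0.000155 is the smallest that 8 against 8 animals can give. Without animal 303 the calls on all 4 measures were the same, with adjusted p of 0.870 for depth and between 0.000622 and 0.00207 for the other measures.

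Animal 303 of CDAA week 4 stood apart from its group. It had the fewest genes with a read (15257, the other 7 between 15767 and 16148), the highest share of reads on the top gene (12.4%, the others up to 9.68%) and the lowest TMM factor (0.827, the others from 1.04), all on the side of the CSAA animals. Across 12756 genes it was the highest of the 8 animals of week 4 in 31.7% and the lowest in 33.1%. Counts of 303 differed from those of the other 7 animals by a chi-square per gene of 121 to 210, against 18.1 to 47.3 among these 7. Many of the results that rest on week 4 are therefore given with and without it. At week 12 animal 1102 had the lowest TMM factor (1.27, the others from 1.35). The closest pair of libraries was 1107 and 1108 with a chi-square per gene of 3.52, followed by 1105 and 1106 with 3.91, both above sampling noise, and all 16 libraries were counted separately.

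The liver on CDAA changed further between week 4 and week 12, with more rises than falls. Of 12756 genes tested, 1347 had an adjusted p under 0.01 together with a log2 fold change of 1 or more in either direction and passed (10.6%). Of these, 948 rose (7.43% of the genes tested) and 399 fell (3.13%). Genes that rose were of low level, with a median over genes of 1.17 normalized CPM (reads on a gene scaled to the library's reads and its TMM factor) at week 4 and 3.75 at week 12. A gene was tested if it reached 1 CPM in most animals of any group, and 518 of the 948 rises (54.6%) did so at week 4 on CDAA, against 92.8% of all genes tested. In 200 of the rises CDAA week 12 was the only group that did, so that these genes entered the test through the group in which they were high. Of the falls 369 of 399 reached it at week 4. Genes that fell were of higher level, with a median of 33.3 normalized CPM at week 4 and 13.4 at week 12. Reads on the genes that rose made up 0.502% of all reads at week 4 and 1.75% at week 12, and reads on the genes that fell made up 6.18% and 3.35%.

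Most changes were moderate. The median log2 fold change was 1.52 for the rises, of which 686 were below 2, 202 between 2 and 3, and 60 at 3 or above. For the falls the median was -1.18, with 361 (90.5%) of a size below 2, 18 between 2 and 3, and 20 of 3 or more. The largest change had a size of 5.08 among the rises and 6.04 among the falls. Among changed genes that reached 1 CPM at week 4 on CDAA, the medians were 1.32 for rises and -1.16 for falls. All 8 animals of week 12 lay above all 8 of week 4 in 664 of the 948 rises (70.04%), and all lay below in 257 of the 399 falls (64.4%). Over all genes tested, 11.4% had every week 12 animal above and 16.3% had every one below, regardless of the size of the change. Without animal 303 the groups separated in 669 of the rises and 264 of the falls, and without animal 1102 in 803 and 288. Groups separate more readily with an animal fewer, and the share over all genes was not determined without 303 or 1102. Animal 1102 was the lowest of week 12 in 591 of the 948 rises (62.3%), against 21.1% of all genes. It was the highest in 192 of the 399 falls (48.1%), against 19.5%. Animal 1101 was at the other end, the highest in 325 rises (34.3%, against 16.3% of all genes).

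The balance of rises and falls depended on the scaling. With TMM factors 70.4% of the genes that passed were rises and the median log2 fold change of all genes tested was -0.06. Scaled to library size alone, 1688 genes were higher and 96 lower (94.6% higher), and the median of all genes was 0.29. After removal of each animal's trend on gene length, 863 were higher and 189 lower (82.03% higher, 8.25% of the genes tested in both directions). In each alternative setting run, all 1347 genes kept the sign of their change.

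The falls depended on animal 303 more than the rises did. Without it 1108 genes passed (8.69%), of which 868 were higher (6.8%) and 240 lower (1.88%). Of the 948 rises 851 passed again, and of the 399 falls 220. The 179 falls that no longer passed had a median log2 fold change of -1.07 with 303 and -0.92 without it. An adjusted p under 0.01 was kept by 154 of them, so that most were lost on the size of the change. In 172 of these 179 genes 303 was the highest animal of week 4. The 97 rises that no longer passed had a median of 1.05 with and 0.96 without 303, and in 84 of them 303 was the lowest animal of week 4. Spread between animals also rested on 303: over 9249 genes with a mean of at least 5 normalized CPM, the median SD of log2 values was 0.21 at week 4, 0.16 at week 4 without 303, and 0.14 at week 12.

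To ask whether the liver moved further along the direction of the diet effect, genes were grouped by the comparison of CDAA with CSAA at week 8, which shares no animal with week 12 against week 4 but comes from the same fit, with a common filter and estimate of the spread. At week 8, 2310 genes were higher on CDAA (18.1%) and 1546 were lower (12.1%) by the same thresholds. Of the 2310 genes higher at week 8, 706 rose between week 4 and week 12 (30.6%) and 15 fell, and the median log2 fold change was 0.58, with 82.2% of the values above 0 against 46.0% of all genes tested. Among the 1846 of them that reached 1 CPM at week 4 on CDAA, 390 rose (21.1%) and the median was 0.45. Of the 1546 genes lower at week 8, 295 fell (19.1%) and 5 rose, and the median was -0.73, with 4.01% of the values above 0. Among the remaining 8900 genes 237 rose (2.66%) and 89 fell (1%), with a median of -0.07. Seen from the changed genes, 706 of the 948 rises (74.5%) and 295 of the 399 falls (73.9%) lay in the matching group.

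Without animal 303 the median of the higher group was 0.49 with 628 rises, and that of the lower group was -0.61 with 131 falls (8.47%). With the trend on gene length removed the medians were 0.53 and -0.44, with 632 rises and 115 falls in the matching groups. On CSAA the medians between the same weeks were 0.29 for the higher group and -0.40 for the lower group. The former was 0.08 without the CSAA animal 908, and the latter was -0.38. The median of the lower group was thus also below 0 in control liver. As a difference between the diets (interaction), the median was 0.33 for the higher group and -0.32 for the lower group, 0.23 and -0.19 without 303, and 0.55 and -0.33 without 908.

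**Figure D1:**
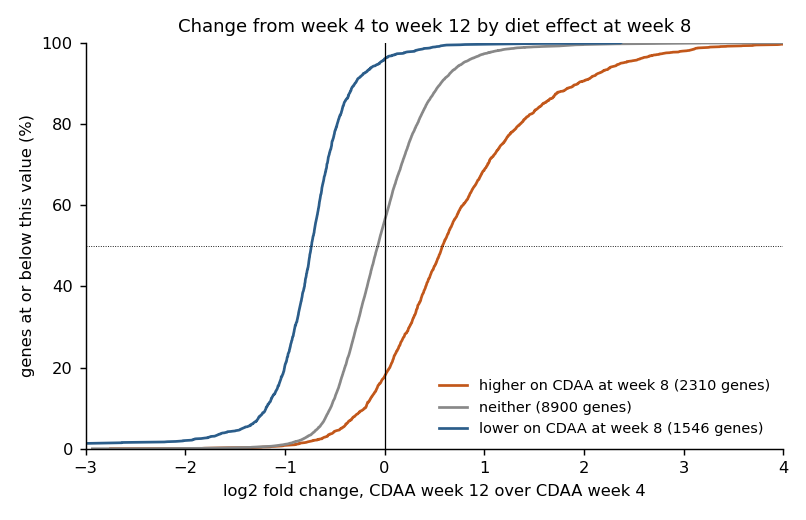
Cumulative share of genes (%) against the log2 fold change of CDAA week 12 over week 4 (x axis, shown from -3 to 4), for genes higher on CDAA at week 8, lower on CDAA at week 8, or neither. The curve of the 2310 higher genes crosses the dotted line at 50% of genes at 0.58, that of the 1546 lower genes at -0.73 and that of the other 8900 genes at -0.07.

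Per animal, the share of reads on these groups separated the weeks. The 2310 genes higher at week 8 held 1.78%, 4.61% and 5.03% of reads (lowest, median and highest animal) at week 4 and 5.46%, 6.78% and 7.46% at week 12, so that the groups did not overlap. The lowest value at week 4 was animal 303 and the others started at 4.25%, and the lowest at week 12 was animal 1102 and the others started at 6.40%. Means were 4.28% ± 1.05 (SD, n = 8) at week 4, 5.92% ± 0.536 at week 8 and 6.74% ± 0.635 at week 12. Without 303 the week 4 mean was 4.63% ± 0.305 (n = 7). CSAA livers held 1.02% ± 0.0545 at week 4 and 1.18% ± 0.394 at week 12 (n = 8 each), the latter with animal 908 at 2.15%. Animal 303, at 1.78%, lay between 908 and the other CSAA animals of week 12, which reached up to 1.15%.

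The 1546 genes lower at week 8 held 27.2%, 29.3% and 41.8% of reads at week 4 and 21.9%, 23.1% and 24.8% at week 12. Again the groups did not overlap, the highest value at week 4 was animal 303 with the others up to 30.2%, and the highest at week 12 was animal 1102. Means were 30.5% ± 4.70 at week 4, 23.96% ± 1.44 at week 8 and 23.1% ± 0.864 at week 12 (SD, n = 8 each), and the week 4 mean was 28.9% ± 1.14 without 303 (n = 7). The week 8 means of both groups of genes come from animals that defined the groups and are not read as a time course. In CSAA livers the share was 45.5% ± 1.90 at week 4 and 40.5% ± 1.70 at week 12, and animal 303 lay within the range of 41.7% to 47.2% that CSAA animals spanned at week 4.

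**Figure D2:**
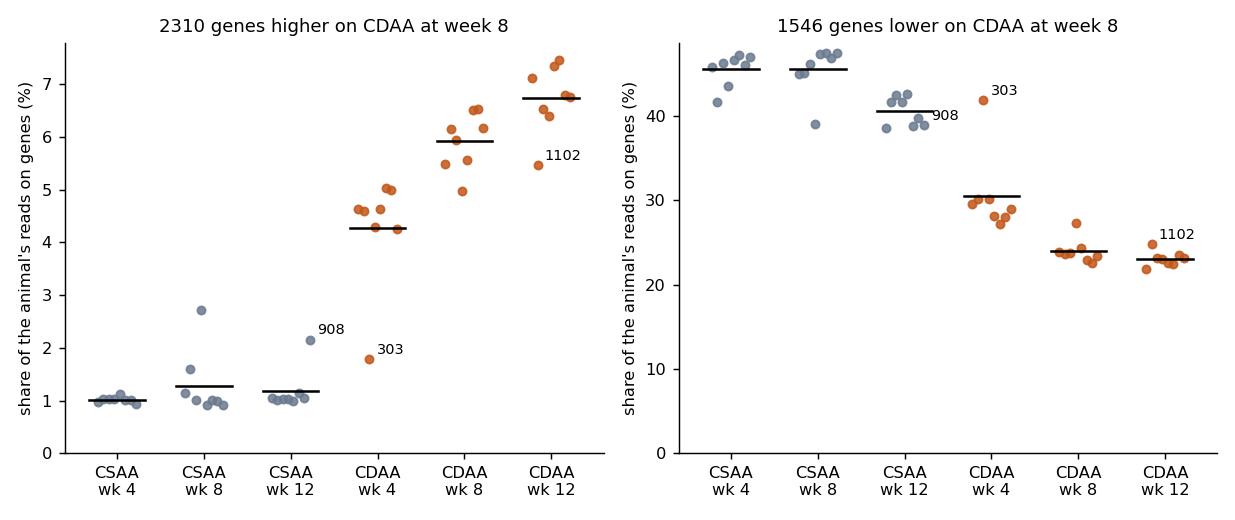
Share of each animal's reads on genes (%, y axis from 0) that fell on the 2310 genes higher (left) and the 1546 genes lower (right) on CDAA than on CSAA at week 8, by diet and week; points are animals and bars are means of 8. On CDAA the left share goes from a mean of 4.28% at week 4 to 6.74% at week 12 and the right share from 30.5% to 23.1%, with 303 near the CSAA animals in both.

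The direction of the change followed the level a gene had in control liver. Levels were taken from the CSAA animals of week 8, which are not part of the comparison. Of 674 genes at or below 0.5 normalized CPM in control liver, 368 rose on CDAA between week 4 and week 12 (54.6%), 8 fell and the median log2 fold change was 1.14. Genes as low as this entered the test through another group, 257 of them through CDAA week 12 alone, which raises their share of rises. Among the 180 that reached 1 CPM at week 4 on CDAA, 35 rose (19.4%), 8 fell and the median was 0.23. In the next class, up to 2 normalized CPM, 305 of 1656 genes rose (18.4%) and 41 fell, with a median of 0.37. Medians then decreased from 0.12 between 2 and 8 normalized CPM to -0.06 between 8 and 32 and -0.30 between 32 and 128. Of the 1086 genes above 128 normalized CPM 145 fell (13.4%), 2 rose and the median was -0.56. Without 303 the outer medians were 1.04 and -0.49.

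The scaling moved the medians of all classes but not their order. The place of the lowest class in this order is in part fixed by the filter. Its 180 genes that reached 1 CPM at week 4 on CDAA had a median of 0.23, below the 0.37 of the whole next class. Scaled to library size alone, each class had a higher median, with 1.49 in the lowest and -0.19 in the highest class. On CSAA the median of the lowest class was 0.47, and 0.16 without animal 908, and that of the highest class was -0.01.

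The change also followed gene length, and did so on both diets. On CDAA the median log2 fold change increased over each of 6 length classes, from -0.54 for the 1283 genes up to 1000 bases to 0.40 for the 1696 genes above 4500 bases. In the shortest class 37 genes rose and 168 fell, and in the longest 270 rose and 7 fell. On CSAA the corresponding medians were -0.38 and 0.29. Without 303 the CDAA medians were -0.51 and 0.36, and without 908 the CSAA medians were -0.39 and 0.27. Genes that rose had a median length of 3275 bases, genes that fell 1184 and all genes 2256. After removal of the length trend 745 of the 948 rises and 156 of the 399 falls passed again, so that falls in particular moved with length. How far RNA quality, library preparation or the pooling of libraries on lanes contributed was not tested, since the labels do not give them per animal.

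**Figure D3:**
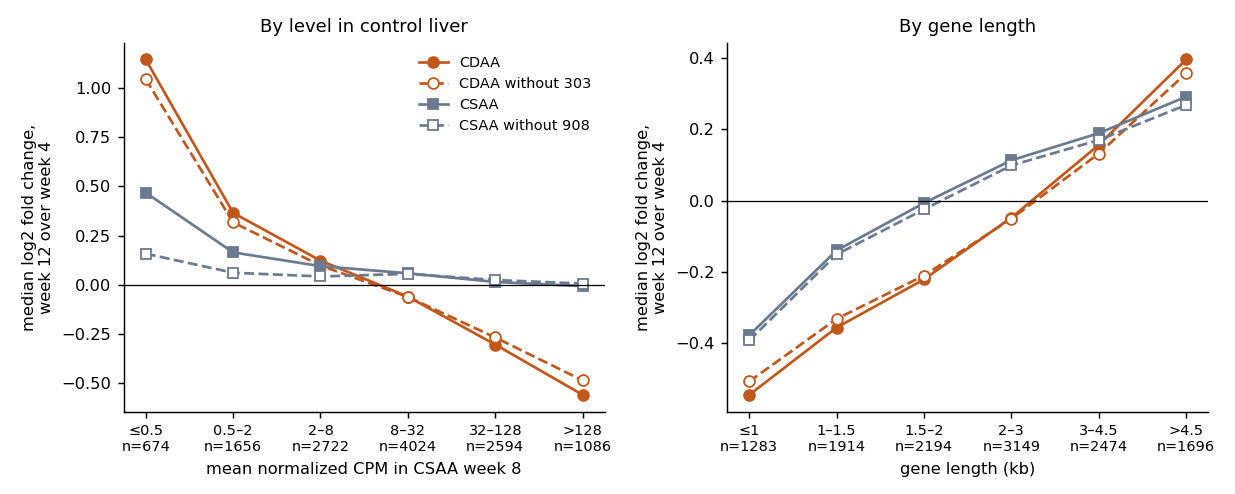
Median log2 fold change of week 12 over week 4 (y axis) on CDAA and on CSAA, each with all animals and without 303 or 908, by the level of the gene in CSAA liver at week 8 (left) and by gene length (right); n is the number of genes. The lowest level class holds many genes that entered the test through CDAA week 12. With level the CDAA line goes from 1.14 to -0.56 and the CSAA line without 908 from 0.16 to 0.01, whereas with length both diets increase, from -0.54 to 0.40 and from -0.38 to 0.29.

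To ask when the change took place, each gene's mean at week 8 on CDAA was placed between its means at week 4 (position 0) and week 12 (position 1) on the log2 scale. Animals of week 8 were not in the comparison that called the genes, but entered the filter on low counts and the estimate of the spread. The 948 rises were at a median position of 0.57 (quartiles 0.40 and 0.77). At week 8, 366 of them had a position between 0 and 0.5, 533 between 0.5 and 1, 37 lay above the week 12 mean (3.9%) and 12 below the week 4 mean. The 399 falls were at a median position of 0.76 (quartiles 0.57 and 0.91). Of these, 78 lay between 0 and 0.5 and 259 between 0.5 and 1. Beyond the week 12 mean lay 59 (14.8%), and 3 were on the other side of week 4. Without animal 303 the medians were 0.54 and 0.73. In 200 of the rises and 0 of the falls, CDAA week 12 was the only group that reached 1 CPM in most animals. These rises were thus low at week 8 by the filter, which in part fixes a lower position for the rises. The difference between rises and falls was not tested.

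**Figure D4:**
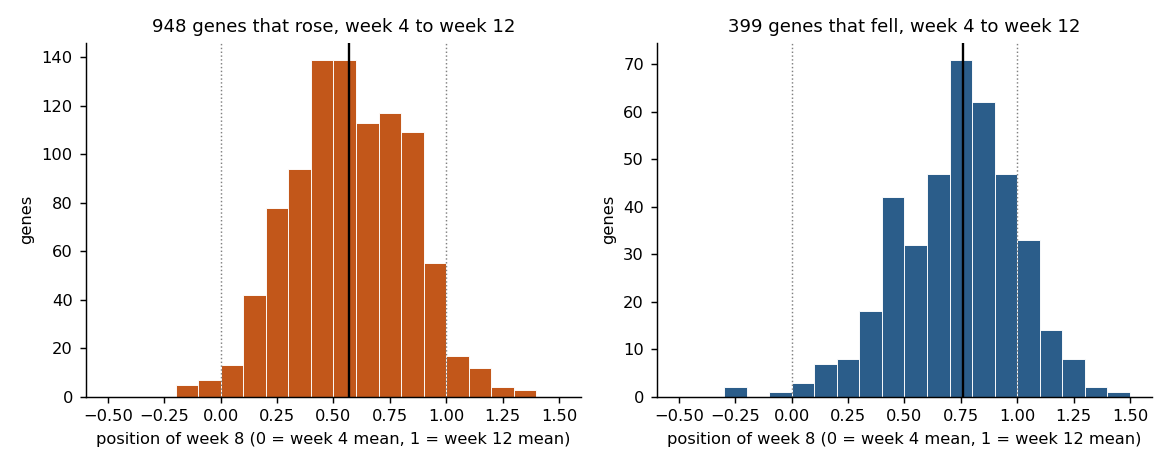
Number of genes (y axis) by the position of the CDAA week 8 mean between the means of week 4 (0) and week 12 (1) on the log2 scale, for the 948 genes that rose (left) and the 399 that fell (right); black lines are the medians, 0.57 and 0.76, and dotted lines mark 0 and 1. Most genes of both kinds lie between the dotted lines.

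Compared with control liver of the same week, most changed genes were displaced from it in the direction of their change at both weeks. Of the 948 rises 776 (81.9%) had a CDAA mean above the CSAA mean at both weeks, 144 went from below to above it, and 27 were still below it at week 12. Over all genes tested, 38.7% were above the CSAA mean at both weeks and 42.8% below it at both. The rises were chosen for a high CDAA mean at week 12 and the falls for a low one, which in part fixes the side on which they lay. Of the 399 falls 317 (79.4%) were below the CSAA mean at both weeks, 54 went from above to below, and 28 were still above it at week 12. Without 303 these numbers were 782, 138 and 27 for the rises and 319, 52 and 28 for the falls.

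The 15 genes that were higher on CDAA at week 8 and yet fell between week 4 and week 12 had a median log2 fold change of -1.22, and 13 of them were still above control at week 12. Their median level went from 2.42 to 1.10 normalized CPM. The 5 genes that were lower at week 8 and rose had log2 fold changes between 1.12 and 2.37. The 237 rises among genes with no call at week 8 had a median of 1.31, and 213 of them (89.9%) were above control at week 12, against 46.7% of all genes tested. As rises they were chosen for a high CDAA mean at week 12, which in part fixes this share. Their median difference between CDAA and CSAA at week 8 was 0.65 on the log2 scale. Without 303 220 of these 237 passed again.

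The same weeks were then compared on CSAA. There 342 of 12756 genes passed (2.68%), 171 in each direction. Of the 948 genes that rose on CDAA 51 also rose on CSAA (5.38%) and 1 fell, and of the 399 falls 57 also fell (14.3%) and 3 rose. Beyond the thresholds, the median log2 fold change on CSAA was 0.49 for the genes that rose on CDAA, against 0.07 for all genes tested, and -0.40 for the genes that fell. Animal 908 carried part of the former, which was 0.27 without it, while the latter was -0.40 again.

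Whether the change differed between the diets was tested as a diet by week interaction. It passed for 643 genes (5.04%), of which 287 changed more upwards on CDAA and 356 more downwards. Tested against a log2 fold change of 1, it passed for 12 genes, 3 upwards and 9 downwards. Which direction was more frequent depended on the setting. Upward changes were more frequent with limma-voom (337 against 280), DESeq2 (468 against 283), the length trend removed (324 against 267) and without 908 (469 against 368). They were less frequent without 303 (260 against 280) and without a filter on low counts (292 against 362). With edgeR and all animals, 227 of the 948 rises (23.9%) and 137 of the 399 falls (34.3%) passed in the same direction. For the rises the median interaction was 1.09 on the log2 scale and for the falls -0.82. The change on CDAA for which these genes were chosen is part of the interaction, which in part fixes its sign and size. Without 303, 210 rises and 93 falls passed in the same direction. Without 908 these numbers were 342 rises and 142 falls, and 1 rise passed in the opposite direction, so that 908 decided the call for many rises. For the larger number of genes that changed on CDAA, a difference from the change in control liver was therefore not shown at these thresholds.

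Individual genes are given by identifier for the largest changes among genes with a mean of at least 5 CPM and no overlap between the weeks, 308 candidates that rose and 221 that fell. Unless another method is named, fold changes and adjusted p in the following are from edgeR's quasi-likelihood test. Without 303 the log2 fold changes on CDAA were 4.19 for ENSRNOG00000012471, 3.96 for ENSRNOG00000026919 and -2.21 for ENSRNOG00000030154. ENSRNOG00000012471 had 0.332, 1.06 and 1.55 normalized CPM (lowest, median and highest animal) on CDAA at week 4 and 4.16, 20.7 and 42.8 at week 12, with 6 to 32 reads per animal at week 4 and 108 to 1211 at week 12. The log2 fold change was 4.31 (SE 0.44, adjusted p = 4.62e-11). Animals 1103 and 1102 were lowest at week 12, with 4.16 and 4.41 normalized CPM, and the next animal had 15.01. At week 8 the median was 2.03 and the highest animal 5.42, so that most of this rise lay after week 8. The highest CSAA animal of week 12 was 908 with 2.57 normalized CPM, the change on CSAA was 0.94 (SE 0.59, adjusted p = 0.212) and the interaction passed (3.37, SE 0.77, adjusted p = 0.00059), but not with limma-voom (2.97, adjusted p = 0.075).

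ENSRNOG00000026919 had 0.221, 0.491 and 0.679 normalized CPM at week 4 and 2.78, 9.17 and 11.7 at week 12, a log2 fold change of 4.05 (SE 0.38, adjusted p = 7.38e-12). It had 4 to 16 reads per animal at week 4. At week 8 it had 1.61, 2.25 and 6.53 normalized CPM, all above week 4 and overlapping with week 12. Animal 1102 was again lowest at week 12, followed by 1103 with 4.34. On CSAA no animal of week 12 exceeded 1.02 normalized CPM, which was animal 908. The interaction did not pass (2.60, SE 0.93, adjusted p = 0.0276). It passed without 908 (3.14, adjusted p = 0.00754) and with DESeq2 (2.67, adjusted p = 0.00132), and in no other setting run for this gene.

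ENSRNOG00000030154 fell, with 270.2, 527 and 1075 normalized CPM at week 4 and 84.7, 108 and 200 at week 12 (log2 fold change -2.36, SE 0.51, adjusted p = 0.000116). The lowest animal of week 4 lay above the highest of week 12, as the choice of genes without overlap required. On CSAA the values scattered far more, between 49.5 and 1564 normalized CPM at week 4 and between 61.3 and 1395 at week 12, with a change of 0.05 (SE 0.49, adjusted p = 0.952). The 8 CDAA animals of week 12 thus lay within the range of control animals. The interaction was -2.40 (SE 0.70, adjusted p = 0.00635). It did not pass without 303 (adjusted p = 0.0118), without 908 (adjusted p = 0.0131) or with limma-voom (adjusted p = 0.0113). Nor did it pass scaled to library size alone (adjusted p = 0.0176) or with the length trend removed (adjusted p = 0.0106).

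ENSRNOG00000059330 had 81.99, 131 and 572 normalized CPM at week 4 and 14.0, 47.3 and 51.9 at week 12 (log2 fold change -2.21, SE 0.33, adjusted p = 2.83e-07). The value of 572 was animal 303 and the next highest was 232. Without 303 the log2 fold change was -1.75 (SE 0.29, adjusted p = 2.32e-06). CSAA animals were all higher than all CDAA animals of the same week, with 1080, 1337 and 2185 normalized CPM at week 4 and 730, 1004 and 1715 at week 12. This gene was already far below control at week 4 and fell further, with a median of 54.8 at week 8. The interaction passed with all animals (-1.74, SE 0.46, adjusted p = 0.00245) but not without 303 (adjusted p = 0.0115), with limma-voom (adjusted p = 0.0101) or scaled to library size alone (adjusted p = 0.015).

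**Figure D5:**
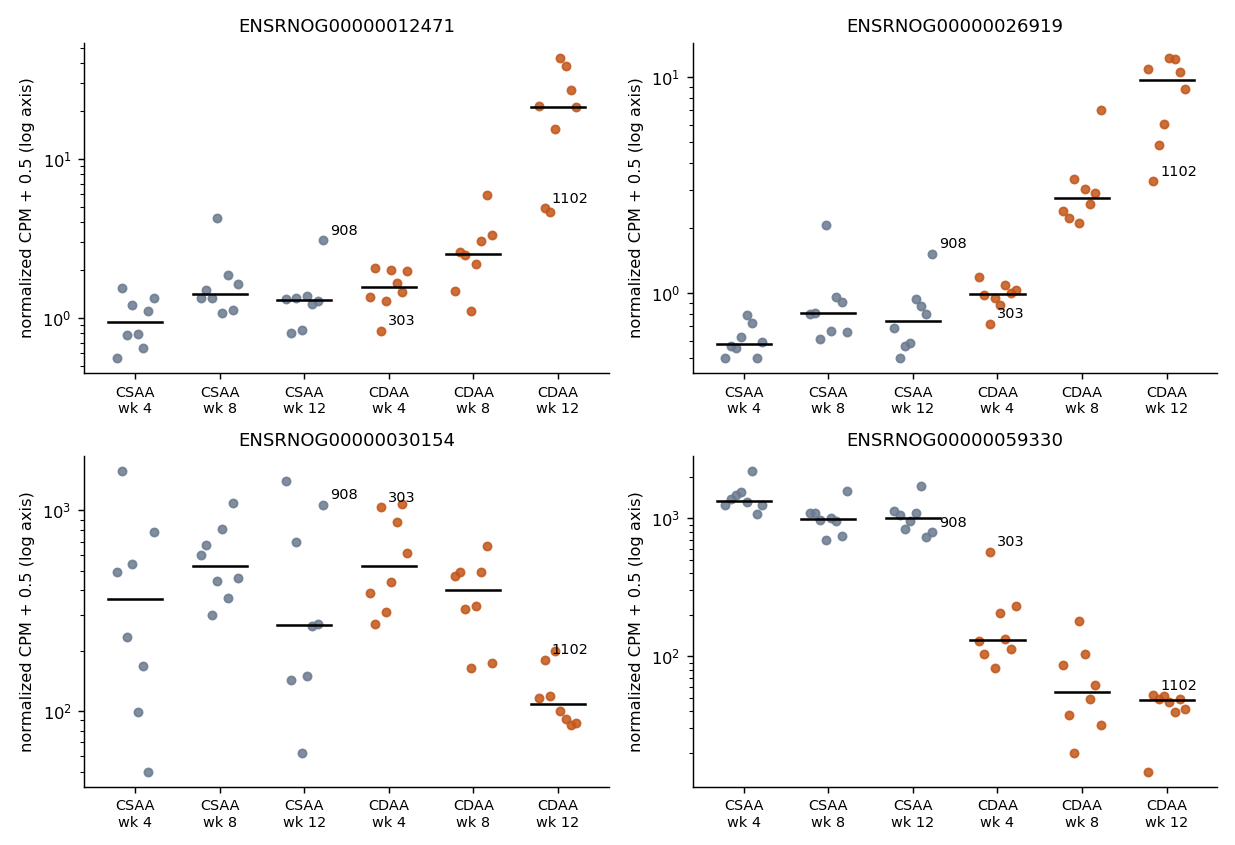
Normalized CPM + 0.5 (log axis) of the 4 genes in each of the 48 livers by diet and week; points are animals, bars are medians of 8, and animals 303, 1102 and 908 are named. In CDAA livers all animals of week 12 lie above all of week 4 in the upper pair and below them in the lower pair. The genes were chosen for this lack of overlap. Animal 303 is the highest week 4 animal for ENSRNOG00000059330.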

How the data were processed

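Polyadenylated liver RNA of 48 rats was sequenced by the authors as stranded single-end libraries, aligned to Rnor_6.0 with STAR (2.5.2a in the processing notes) and counted per Ensembl gene with featureCounts. The deposited counts are not normalized. The deposited RPKM values, scaled by the authors to gene length and reads on genes, were used for alternatives and, from their ratio to the counts, for gene length. Groups were taken from the labels. Members and gene groups were chosen with earlier results of these data known.

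The 48 animals were fitted together by the quasi-likelihood method of edgeR 4.0.16 (R 4.3.3) with TMM factors and a coefficient for each group. Of 32662 genes, 12756 reached 1 CPM in 5 or more animals of any group. A call required a Benjamini-Hochberg adjusted p under 0.01 and a log2 fold change of 1 or more in size. Normalized CPM are scaled by TMM factors, with 0.5 added before logs. Two-sided exact permutation tests were used for library measures (scipy 1.17.1). Identifiers were printed for up to 2 genes each way: called, no overlap, mean of at least 5 CPM, largest change. Lists of gene symbols were not applied. limma 3.58.1 (limma-voom, the authors' test), DESeq2 1.42.0 and other settings were alternatives. In counts simulated from the levels of CDAA week 4, edgeR found 196 of 200 genes made to differ by 2 on the log2 scale among 12756, with 1 false call. The 200 genes were drawn among those at 1 CPM or more at that week, with equal numbers up and down. Genes below that level, smaller changes and an animal apart from its group were not simulated, so that recovery of these was not tested. With a simulated trend on gene length edgeR made 1624 false calls, and 0 once the trend was removed, with 196 recovered. The slope of that trend was set by hand and was steeper than the one seen on CDAA. The 1624 is thus no estimate of false calls in the data. Depth was 16205180 to 22284359 reads on genes per animal, at which the spread between animals limits the precision for most genes.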

Additional observations from a re-analysis of the deposited data

Results flagged for a closer look

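Of 20 sets of 8 values, each a measure in 1 group of animals, 8 showed a single animal apart from the rest. Chance gives about 1 in 20 for independent sets, but measures of the same animals depend on one another. Of the 8, 6 were animal 303 of CDAA week 4. These were its genes with a read (15257), its share of reads on the top gene (12.4%), its TMM factor (0.827), its shares of reads on the genes higher and lower on CDAA at week 8 (1.78% and 41.8%), and its level of ENSRNOG00000059330 (572 normalized CPM). At week 12 animal 1102 had a low TMM factor (1.27) and animal 1101 a low level of ENSRNOG00000059330 (14.0 normalized CPM, the others from 38.6). Why these animals stood apart was not tested.

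The change from week 4 to week 12 differed between CDAA and CSAA in 643 genes by the interaction (edgeR). Among the genes given by identifier it differed for ENSRNOG00000012471 (3.37 on the log2 scale), ENSRNOG00000030154 (-2.40) and ENSRNOG00000059330 (-1.74), and the latter pair did not pass without 303, while none of these passed with limma-voom (adjusted p = 0.075, 0.0113 and 0.0101).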

How the results depend on the processing

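No paired analysis was possible because the animal numbers of the groups are not shared. On CDAA, 1347 genes changed (948 higher, 399 lower). Leaving out each animal in turn gave 1108 to 1452 genes, 868 to 1014 higher and 240 to 443 lower, with the lowest numbers without 303. Tested against a log2 fold change of 1, 314 genes passed (274 higher, 40 lower). On log2(RPKM + 1) 600 passed (552 higher, 48 lower), and on log2(RPKM + 0.1) 1584 were higher and 81 lower. Scaled to library size alone 1688 were higher and 96 lower, and without a filter on low counts 1423 were higher. The number lower was 264 with sample quality weights, 189 with the length trend removed, 264 without 303 and 1102, and 127 with the length trend removed and without 303, a setting chosen after seeing the data. On CSAA 82 genes were lower with the length trend removed (171 before). The interaction gave 1014 genes scaled to library size alone (918 higher, 96 lower), 468 higher with DESeq2, 260 to 469 higher when 303 or 908 was left out (287 with all animals) and, with the length trend removed and without 303, 201 lower (356 before). Tested against a log2 fold change of 1, 12 genes passed for the interaction (3 higher, 9 lower) and 10 on CSAA. The cause of these shifts was not tested. The other 119 results on counts and library measures stayed within 1.5 times or on their side of the threshold, and the 4 genes given by identifier passed on CDAA with the same sign in every alternative run for them. Scaled to library size alone, the median log2 fold changes of the genes higher, lower and without a call at week 8 were 0.92, -0.36 and 0.28. With 8 animals a group and these depths, small changes of genes with few reads at week 4 are the least certain.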

Other observations

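Single control animals also had a raised share of reads on the 2310 genes higher on CDAA at week 8, an observation made after the values were seen. Animal 504 of CSAA week 8 was at 2.71% and animal 502 of the same group at 1.59%, and animal 908 of CSAA week 12 was at 2.15%, against a median of 1.02% on CSAA at week 4. Animal 504 belongs to the groups that defined these genes. On the 1546 lower genes 504 was at 39.03%, against a median of 46.5% in its group, while 908 was at 38.9% against 40.7%. On CDAA at week 8 animal 704 had the lowest share of reads on the higher genes (4.98%) and the highest on the lower genes (27.3%), within the range of week 4. Why these animals differed was not tested.

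Animals 1105 to 1108 of week 12 were closer to each other than to the rest, with a chi-square per gene of 3.52 to 10.2 between them against 11.8 and more for the other pairs of the group. Without 1106, 1107 and 1108 the comparison on CDAA gave 843 genes higher and 354 lower.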
